A study of Homo sapiens with 12 samples.

Results

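The alpha and beta tubulin genes encode the subunits of microtubules. The genes described here are 4 alpha tubulins (TUBA1A, TUBA1B, TUBA1C and TUBA4A) and 6 beta tubulins (TUBB, TUBB2A, TUBB2B, TUBB3, TUBB4B and TUBB6). They were chosen from a fixed list of symbols, and all 10 were among the 10050 genes tested. They had 20 probe sets with exactly 1 gene symbol, of which 19 reached 5 log2 units on at least 3 arrays, and each gene is represented by its brightest probe set on average. Tubulin sequences are closely alike, so a probe set can also bind RNA of another isotype, and every probe set is therefore described further on.

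As background, 1 alpha and 1 beta tubulin join to a heterodimer with the help of the chaperonin CCT, prefoldin and folding cofactors, and heterodimers stack end to end into the microtubule wall. Microtubules form the mitotic spindle, the primary cilium and the tracks on which kidney tubule cells carry vesicles. Tubulin messenger RNA is also regulated by its own product: free heterodimer speeds the decay of tubulin messenger RNA that is being translated, in a pathway that uses TTC5, SCAPER and the CCR4-NOT deadenylase.

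HK-2 is an immortalised line from the human renal proximal tubule, here grown near confluence in a defined medium with epidermal growth factor, insulin, transferrin and hydrocortisone. Cells were exposed to Ra for 48 h, to vehicle (control) for 48 h, to Ra for 12 h or to vehicle for 12 h, with 3 biological replicates in each of the 4 groups and 12 arrays in all. The series belongs to a search for transcript patterns that mark toxicity to the kidney. The sources used here do not state what Ra is, its dose or the vehicle. Levels are GCRMA log2 expression values from Affymetrix 3′ arrays, and differences are in log2 units, so that a difference of 1 is a 2-fold change.

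In the RefSeq annotation of GRCh38.p14 the genes lie on 6 chromosomes. TUBA1B (chr12:49127782-49131395), TUBA1A (chr12:49184795-49189080) and TUBA1C (chr12:49227926-49274600) are neighbours, as are TUBB2A (chr6:3153666-3157544) and TUBB2B (chr6:3224277-3227653). TUBB is at chr6:30720352-30725422, TUBB4B at chr9:137241287-137243707, TUBB3 at chr16:89921925-89936097, TUBB6 at chr18:12307669-12329826 and TUBA4A at chr2:219249710-219254740. Where the probes lie within the transcripts was not analysed here.

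The results set TUBB4B and TUBB, which were higher with Ra than in control cells at 48 h, against TUBB2A and TUBB2B. These neighbours did not pass the test there. The 250 bases before the RefSeq start (GRCh38.p14) of these 4 beta tubulin genes are therefore shown, 5′ to 3′ on the gene's strand. Capitals mark CCAAT (or ATTGG, the same motif on the other strand), TATAA (or TTATA) and TGACGTCA, the cyclic AMP response element, which reads alike on both strands. The windows are chr9:137241037-137241286 (plus strand) for TUBB4B, chr6:30720102-30720351 (plus strand) for TUBB, chr6:3157545-3157794 (minus strand) for TUBB2A and chr6:3227654-3227903 (minus strand) for TUBB2B.
TUBB4B: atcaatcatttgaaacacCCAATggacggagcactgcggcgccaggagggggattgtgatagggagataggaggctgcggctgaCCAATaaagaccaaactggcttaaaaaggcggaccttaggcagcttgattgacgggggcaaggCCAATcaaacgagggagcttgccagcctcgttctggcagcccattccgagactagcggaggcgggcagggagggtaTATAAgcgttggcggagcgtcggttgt
TUBB: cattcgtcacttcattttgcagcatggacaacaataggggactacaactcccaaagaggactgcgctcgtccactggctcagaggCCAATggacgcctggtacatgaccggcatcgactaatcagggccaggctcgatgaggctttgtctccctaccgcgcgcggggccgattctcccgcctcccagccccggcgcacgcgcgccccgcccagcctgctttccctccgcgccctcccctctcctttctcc
TUBB2A: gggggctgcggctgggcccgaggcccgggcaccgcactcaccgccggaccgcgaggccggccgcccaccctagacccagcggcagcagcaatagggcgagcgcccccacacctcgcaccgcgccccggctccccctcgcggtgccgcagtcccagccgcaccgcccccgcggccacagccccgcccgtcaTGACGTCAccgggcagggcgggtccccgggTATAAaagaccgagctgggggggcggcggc
TUBB2B: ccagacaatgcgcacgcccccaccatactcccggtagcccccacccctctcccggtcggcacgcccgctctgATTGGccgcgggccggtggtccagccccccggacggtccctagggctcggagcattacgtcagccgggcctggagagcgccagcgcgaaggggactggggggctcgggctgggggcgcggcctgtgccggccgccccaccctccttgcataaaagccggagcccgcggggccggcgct
The TUBB4B window held 3 CCAAT motifs and 1 TATAA, the TUBB window 1 CCAAT, the TUBB2B window 1 CCAAT on the other strand, and the TUBB2A window 1 TATAA and 1 TGACGTCA. No 2 marked motifs overlapped in these windows. Over 35116 RefSeq windows of this length, 32% held CCAAT, 18.9% TATAA and 1.65% TGACGTCA. Of the 15 windows of the 10 tubulin genes, 9 held CCAAT, 5 TATAA and 1 TGACGTCA. Counted by gene these were 7, 5 and 1 of the 10. Windows of the same gene can overlap and hold the same motif, as for CCAAT in TUBA1C, so they are not independent. A match describes letters only and names no bound factor.

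The arrays at 48 h varied more than those at 12 h. Between replicates the median gene had an SD of 0.43 for Ra and 0.22 for control at 48 h, against 0.12 in both groups at 12 h. Ra 48 h replicate 2 stood apart, with an SD over its probe sets of 2.81, against 3.09 to 3.14 on the other arrays. The differences between Ra and control at 48 h were -0.04 ± 0.08 for GAPDH and 0.07 ± 0.09 for ACTB (SE), and neither gene passed. Of the marker lists, 6 of 6 epithelial genes were measured, but only 3 of 14 proximal tubule genes (PAX8, CDH6 and SLC22A5), and the transporters and receptors LRP2, CUBN, AQP1 and SLC34A1 were at background. Of 10 neuronal genes 5 were measured, namely ELAVL3, NEFL, SNAP25, NEFM and MAP2, with means over 12 arrays of 6.68, 6.47, 6.10, 5.68 and 5.23. The others, RBFOX3, DCX, SYP, ELAVL4 and STMN2, were at background. TUBB3, often used as a neuronal marker, was thus accompanied by a part of this list only. Of the 5 measured neuronal genes 0 passed between Ra and control at either time. Of all genes, 0.0299% passed at 12 h, and 3% were called higher and 9.56% lower at 48 h. Over time with vehicle 2 of the 5 rose and 1 fell, against 9.37% and 10.1% of all genes. With 5 genes, these counts cannot be told from the shares of all genes. Of 9 fibroblast genes 3 were measured, LUM, DCN and COL1A1, with means over 12 arrays of 9.55, 9.33 and 7.98. Of 7 endothelial genes 1 was measured (CLDN5, 5.08). None of the 7 immune genes was measured (0 of 7). In such bulk RNA, fewer cells with a transcript and less of it per cell cannot be told apart.

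**Figure D1:**
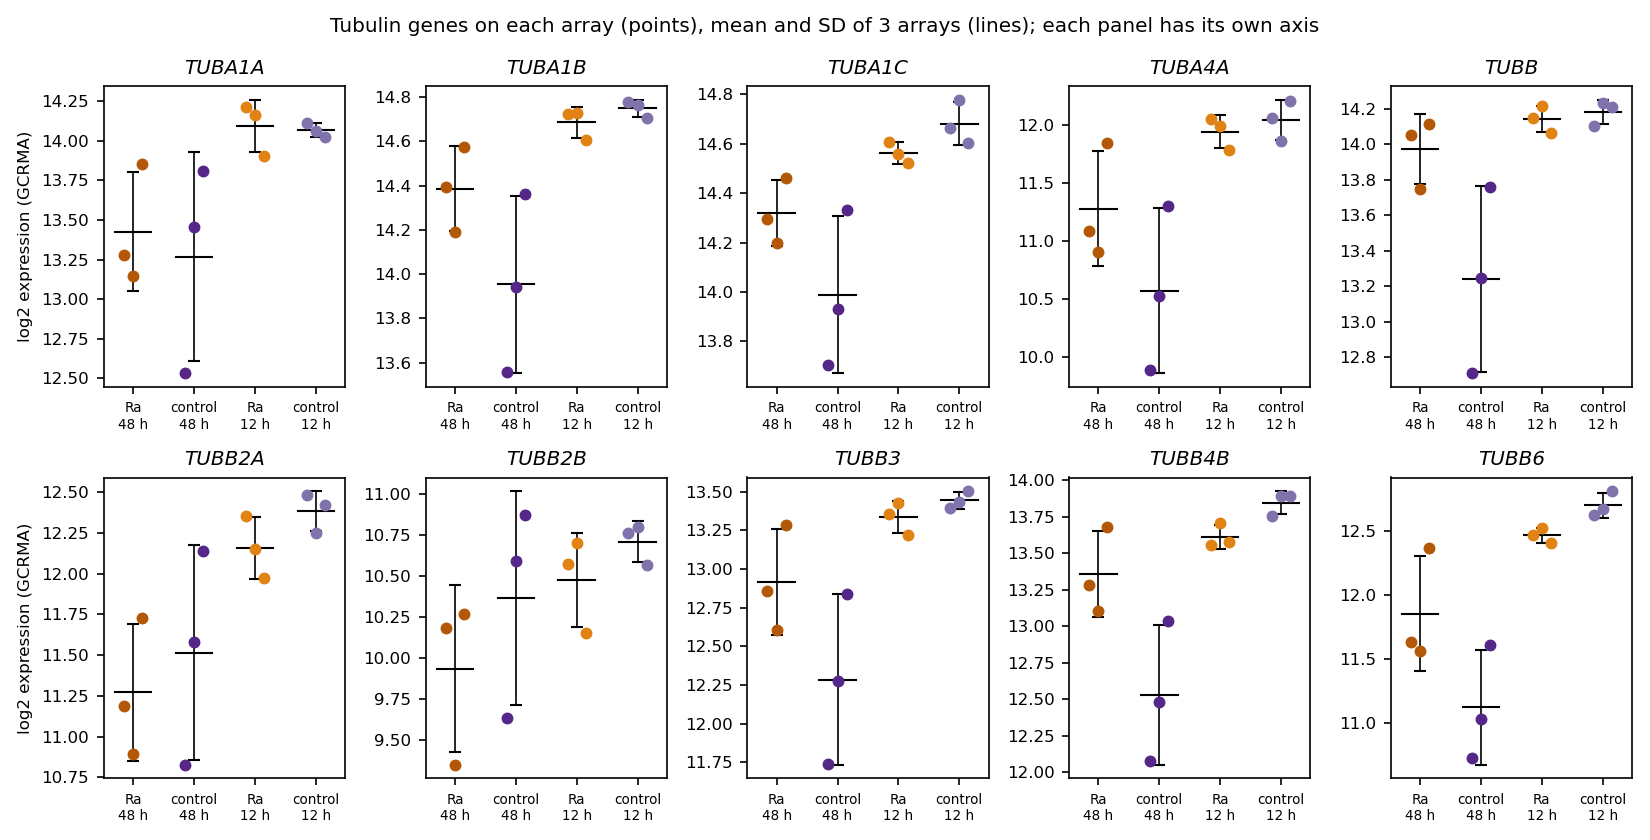
The panels show the log2 expression (GCRMA) of each tubulin gene on the y axis, with 1 point per array, for the Ra and control groups of each time; lines are the mean and SD of 3 arrays, and each panel has its own axis. The 12 h arrays lie close together and high, and the 48 h arrays spread, with TUBB4B the gene whose 3 Ra arrays at 48 h (13.10 to 13.68) all lie above the 3 control arrays (12.08 to 13.03).

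At 12 h, 0 of the 10 tubulin genes passed the test between Ra and control cells. The differences ran from -0.24 to 0.03, with a median of -0.11 against 0.01 over all genes. limma, fitted on all 12 arrays with Benjamini-Hochberg adjustment at 0.05, called 0.0299% of all genes at this time. At an unadjusted p under 0.05 it gave 0 of the 10 tubulin genes, against 751 of 10050 genes. The Ra arrays of 2 of the 10 genes lay wholly below the control arrays, TUBB4B and TUBB6, where 16.9% of all genes showed this, and 0 of the 10 lay wholly above (18.4% of all genes).

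TUBB4B, a broadly expressed beta isotype that also builds cilia, had 13.55, 13.70 and 13.58 with Ra, against 13.75, 13.89 and 13.89 in control cells at 12 h. TUBB6, a beta isotype known in non-neuronal cells, had 12.47, 12.52 and 12.40 with Ra, against 12.62, 12.67 and 12.81 in control cells at 12 h. For both genes the highest Ra array was below the lowest control array. The differences were -0.23 ± 0.20 for TUBB4B and -0.24 ± 0.23 for TUBB6 in the fit of 12 arrays (SE; limma adjusted p = 0.895 and 0.928). In a limma fit of the 6 arrays of 12 h alone, whose spread is smaller, TUBB4B was lower with Ra by 0.23 ± 0.06 (adjusted p = 0.0452). TUBB6 gave -0.24 ± 0.07 there (adjusted p = 0.0545), and 6.25% of all genes were called lower and 7.34% higher. With the replicate number as a block in that fit, a setting added after the data were seen, both genes were called lower (limma adjusted p = 0.0131 for TUBB4B and 0.0371 for TUBB6). That setting called 2351 of all 10050 genes in either direction, so 2 of the 10 tubulin genes is not a larger share than that of all genes. Same-numbered arrays deviated together at 12 h.

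At 48 h, TUBB4B and TUBB were higher with Ra than in control cells, and the other 8 genes did not pass the test. Called higher were thus 2 of 10, and lower 0 of 10, against 3% and 9.56% of all genes. The median difference of the 10 was 0.53, against -0.20 over all genes. Without Ra 48 h replicate 2 these medians were 0.66 and 0.01. At an unadjusted p under 0.05 there were 7 of the 10, against 3352 of 10050 genes.

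TUBB4B had 13.28, 13.10 and 13.68 with Ra, against 12.08, 12.48 and 13.03 in control cells at 48 h. All 3 Ra arrays lay above all 3 control arrays, which was so for 1 of the 10 genes and for 5.37% of all genes, and for 0 of the 10 they lay wholly below (18.6% of all genes). The mean of TUBB4B was 13.36 ± 0.30 with Ra, against 12.53 ± 0.48 in control cells (SD, n = 3 each). It was thus higher with Ra by 0.82 ± 0.20, or 1.77-fold (SE, limma adjusted p = 0.0264). The Ra arrays of 48 h overlapped those of 12 h in level, whereas the control arrays of 48 h lay below all those of 12 h.

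TUBB, the main beta isotype of most dividing cells, had 14.05, 13.75 and 14.12 with Ra, against 12.71, 13.25 and 13.76 in control cells at 48 h. The lowest Ra array, replicate 2, and the highest control array, replicate 3, overlapped narrowly. Its mean was 13.97 ± 0.20 with Ra, against 13.24 ± 0.52 in control cells (SD, n = 3 each). It was thus higher with Ra by 0.73 ± 0.20, or 1.66-fold (SE, limma adjusted p = 0.0355).

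TUBB6 had 11.63, 11.56 and 12.37 with Ra, against 10.73, 11.04 and 11.61 in control cells at 48 h. Ra replicate 2 and control replicate 3 overlapped, and the difference of 0.73 ± 0.23 was as large as that of TUBB but did not pass (SE; limma adjusted p = 0.0555). TUBB3, a beta isotype of neurons and of many cultured lines, had 12.86, 12.60 and 13.29 with Ra, against 11.74, 12.28 and 12.84 in control cells, a difference of 0.63 ± 0.23 (limma adjusted p = 0.0834). Its groups also overlapped through Ra replicate 2 and control replicate 3.

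Among the alpha tubulins, TUBA4A, whose product carries no C-terminal tyrosine in its encoded sequence, had 11.08, 10.91 and 11.85 with Ra, against 9.88, 10.53 and 11.30 in control cells at 48 h. Its difference of 0.71 ± 0.31 did not pass (limma adjusted p = 0.133). TUBA1B and TUBA1C, the widely expressed alpha isotypes, differed by 0.43 ± 0.16 and 0.33 ± 0.13 (limma adjusted p = 0.0875 and 0.108), and TUBA1A, known for its part in brain development, by 0.16 ± 0.26 (0.703). The groups overlapped for all 4 alpha genes. The TUBA1B and TUBA1C arrays reached 14.78, where the highest value on an array was 15.85 to 16.17.

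TUBB2A and TUBB2B, a neighbouring pair of beta isotypes best known from neurons, gave differences in the other direction. TUBB2A had 11.19, 10.90 and 11.73 with Ra, against 10.83, 11.58 and 12.14 in control cells at 48 h. TUBB2B had 10.19, 9.35 and 10.27 with Ra, against 9.63, 10.59 and 10.87 in control cells. Both pairs of groups overlapped, and the differences were -0.24 ± 0.28 for TUBB2A and -0.43 ± 0.31 for TUBB2B (SE; limma adjusted p = 0.571 and 0.352). The intervals reached from -0.86 to 0.37 for TUBB2A and from -1.11 to 0.25 for TUBB2B (95%), and the TUBB2A difference turned to 0.0056 when arrays were centred on their median and to 0.084 with array weights.

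Both calls at 48 h rest on few arrays, and the number of all genes called moved as well. The main fit called 1262 of all genes in either direction, and such counts stand in brackets. Without control replicate 1, control replicate 2 or Ra replicate 3 of 48 h, 0 of the 10 were called [118, 45 and 612]. Without any single array of 12 h it was 1 [692 to 757]. Without Ra replicate 1 of 48 h it was 3 [2725], without Ra replicate 2 it was 4 [1943], and without control replicate 3 it was 7 [1982]. A fit of the 6 arrays of 48 h alone called 0 of the 10 (limma adjusted p = 0.221 for TUBB4B and 0.234 for TUBB). It called 0 of all genes as well, so it cannot tell the tubulin genes from the rest.

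**Figure D2:**
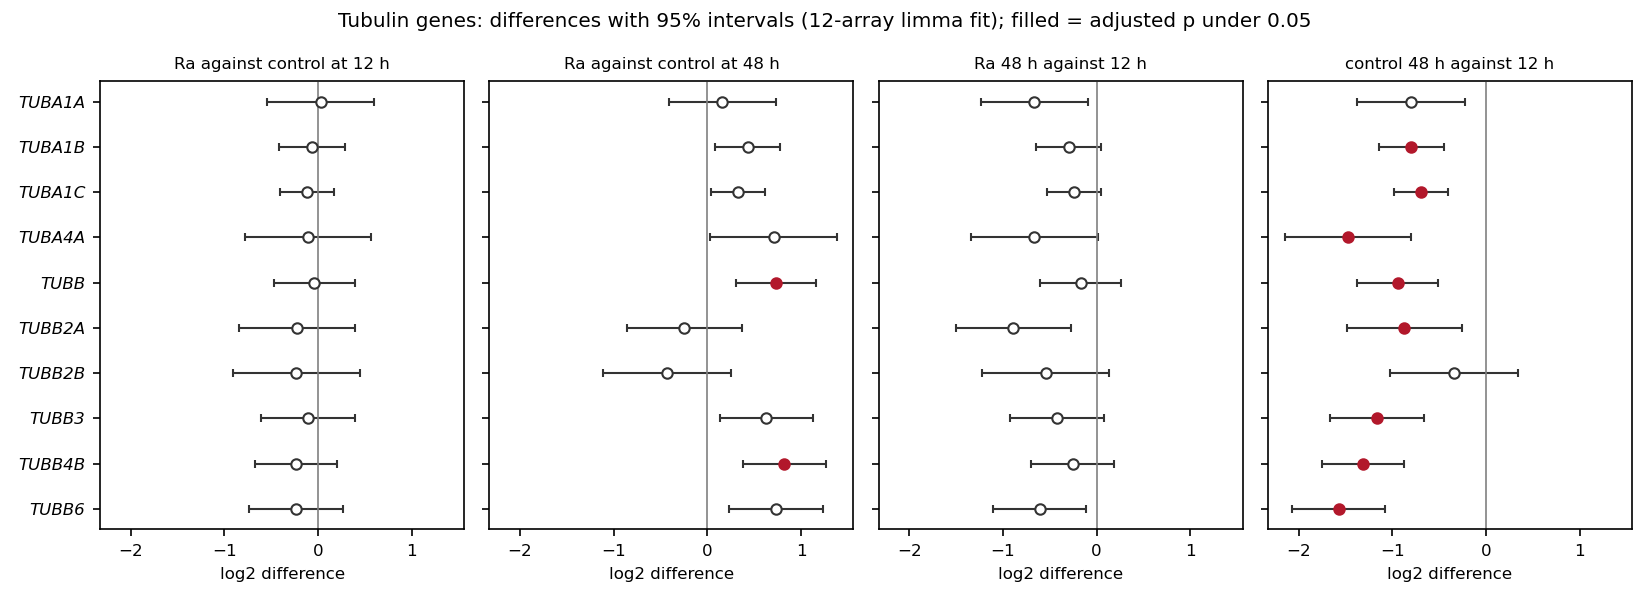
The x axis gives the log2 difference of each tubulin gene with its 95% interval in the fit of 12 arrays, for Ra against control at 12 h and at 48 h and for 48 h against 12 h with Ra and with vehicle; filled points have a limma adjusted p under 0.05. At 12 h the points lie near 0, at 48 h TUBB (0.73) and TUBB4B (0.82) are filled, and with vehicle over time 8 of the 10 are filled and lower.

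With vehicle alone, tubulin transcripts were lower at 48 h than at 12 h. Of the 10 genes 8 fell and 0 rose, against 10.1% and 9.37% of all genes. The median difference of the 10 was -0.91, against 0.01 over all genes. The 48 h arrays lay wholly below the 12 h arrays for 9 of the 10, all but TUBB2B, where 26% of all genes showed this, and wholly above for 0 of the 10 (24.8% of all genes).

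TUBB6 fell most, to 10.73, 11.04 and 11.61 in control cells at 48 h, against 12.62, 12.67 and 12.81 at 12 h. This was a difference of -1.57 ± 0.23, or 0.336 of the 12 h level (SE; limma adjusted p = 0.0024). TUBA4A fell by 1.48 ± 0.31, to 10.57 ± 0.71 at 48 h, against 12.05 ± 0.17 at 12 h (SD, n = 3 each; limma adjusted p = 0.0086). TUBB4B fell by 1.31 ± 0.20 (adjusted p = 0.0027) and TUBB3 by 1.16 ± 0.23 (adjusted p = 0.0066). The remaining called genes were TUBB, which fell by 0.94 ± 0.20, TUBB2A by 0.87 ± 0.28, TUBA1B by 0.80 ± 0.16 and TUBA1C by 0.69 ± 0.13 (limma adjusted p = 0.0493 for TUBB2A and 0.0058 to 0.0086 for the others).

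TUBA1A, with -0.80 ± 0.26, missed the threshold (limma adjusted p = 0.0517), and TUBB2B gave -0.34 ± 0.31 (adjusted p = 0.478). The 3 control arrays of 48 h stood in the same order for every tubulin gene, with replicate 1 lowest and replicate 3 highest. The mean of the 10 genes, relative to control cells at 12 h, was -1.54, -0.97 and -0.47 on them. The TUBB2A call was lost without 9 of the 12 arrays in turn. The control arrays of 48 h enter both this comparison and that of Ra against control at 48 h, so the 2 are not independent.

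With Ra, 0 of the 10 genes passed the test between 48 h and 12 h, and limma called 0 of all 10050 genes there, with 1562 at an unadjusted p under 0.05, 3 of them tubulins. The median difference of the 10 was -0.48, against -0.21 over all genes, and without Ra 48 h replicate 2 these were -0.26 and 0.01. All 10 differences were below 0, from -0.89 ± 0.28 for TUBB2A (limma adjusted p = 0.219) to -0.17 ± 0.20 for TUBB (0.658). With Ra the 48 h arrays lay wholly below the 12 h arrays for 5 of the 10 (TUBA1A, TUBA1B, TUBA1C, TUBB2A and TUBB6), where 17% of all genes showed this, and wholly above for 0 of the 10 (2.49% of all genes). TUBB2A had 11.19, 10.90 and 11.73 at 48 h, against 12.35, 12.15 and 11.97 at 12 h with Ra, and its difference with vehicle was -0.87 ± 0.28.

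Whether the Ra effect itself differed between the times was tested directly. The effect at 48 h minus that at 12 h was 1.06 ± 0.29 for TUBB4B (limma adjusted p = 0.114), 0.97 ± 0.33 for TUBB6 (0.153) and 0.77 ± 0.28 for TUBB (0.173). None of the 10 passed, and limma called 0.0199% of all genes, and 0.0173% of all probe sets lower and 0 of the tubulin probe sets. The median over the 10 was 0.62, against -0.19 over all genes, and 6 of the 10 were at an unadjusted p under 0.05, against 1933 of all genes. Without Ra 48 h replicate 2 the medians were 0.74 and 0.02. Without control 48 h replicate 3, 6 of the 10 passed, beside 572 of all 10050 genes, and without Ra 48 h replicate 1 it was 1, beside 1041.

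The probe sets of 1 gene gave values close to each other. At 48 h, 5 of the 19 probe sets were higher with Ra and 0 lower, against 2.5% and 7.87% of all 17339 probe sets. They were all 3 of TUBB and both of TUBB4B. The TUBB probe set whose name carries no suffix for cross-hybridisation had 13.27, 13.28 and 13.71 with Ra, against 11.79, 12.35 and 13.16 in control cells at 48 h. Its groups did not overlap, and it was higher with Ra by 0.99 ± 0.26 (SE, limma adjusted p = 0.0349). The second TUBB4B probe set was higher with Ra by 0.92 ± 0.22 (limma adjusted p = 0.0281).

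The 5 probe sets of TUBA1B past the filter gave 0.43 to 0.56, those of TUBA1C 0.33 and 0.38 and those of TUBB3 0.63 and 0.74, and 0 of these passed. A further TUBA1B probe set stayed at background on every array. Between control cells at 48 h and at 12 h, 16 of the 19 fell and 0 rose, against 9.07% and 8.13% of all probe sets, and the exceptions were those of TUBA1A, TUBB2A and TUBB2B.

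The probe set annotated to both TUBB2B and TUBB2A averaged 9.63 ± 0.57 with Ra, against 9.34 ± 0.71 in control cells at 48 h (SD, n = 3 each), a difference in the other direction from those of TUBB2A and TUBB2B and within the spread. Most tubulin probe sets are of the kind that may bind several isotypes, and how much of a value came from another isotype was not tested. When cross-hybridising kinds were left out, 4 genes remained (TUBA4A, TUBB, TUBB2A and TUBB6), of which 1 was called higher with Ra at 48 h and 4 lower with vehicle over time. That setting called 903 and 1409 of all genes in these comparisons, in either direction. Outside the 10, TUBB4A, a beta isotype best known from neurons, also passed the filter, with 4.78 ± 1.02 with Ra, against 5.34 ± 0.58 in control cells at 48 h (SD, n = 3 each), a difference of -0.56 ± 0.44 (SE; limma adjusted p = 0.397). A probe set of TUBA4B reached 5.31, and the 2 shared by TUBA3D and TUBA3C reached 7.53 and 8.06 at their highest. TUBB1, TUBA8 and TUBAL3 were at background on all arrays.

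**Figure D3:**
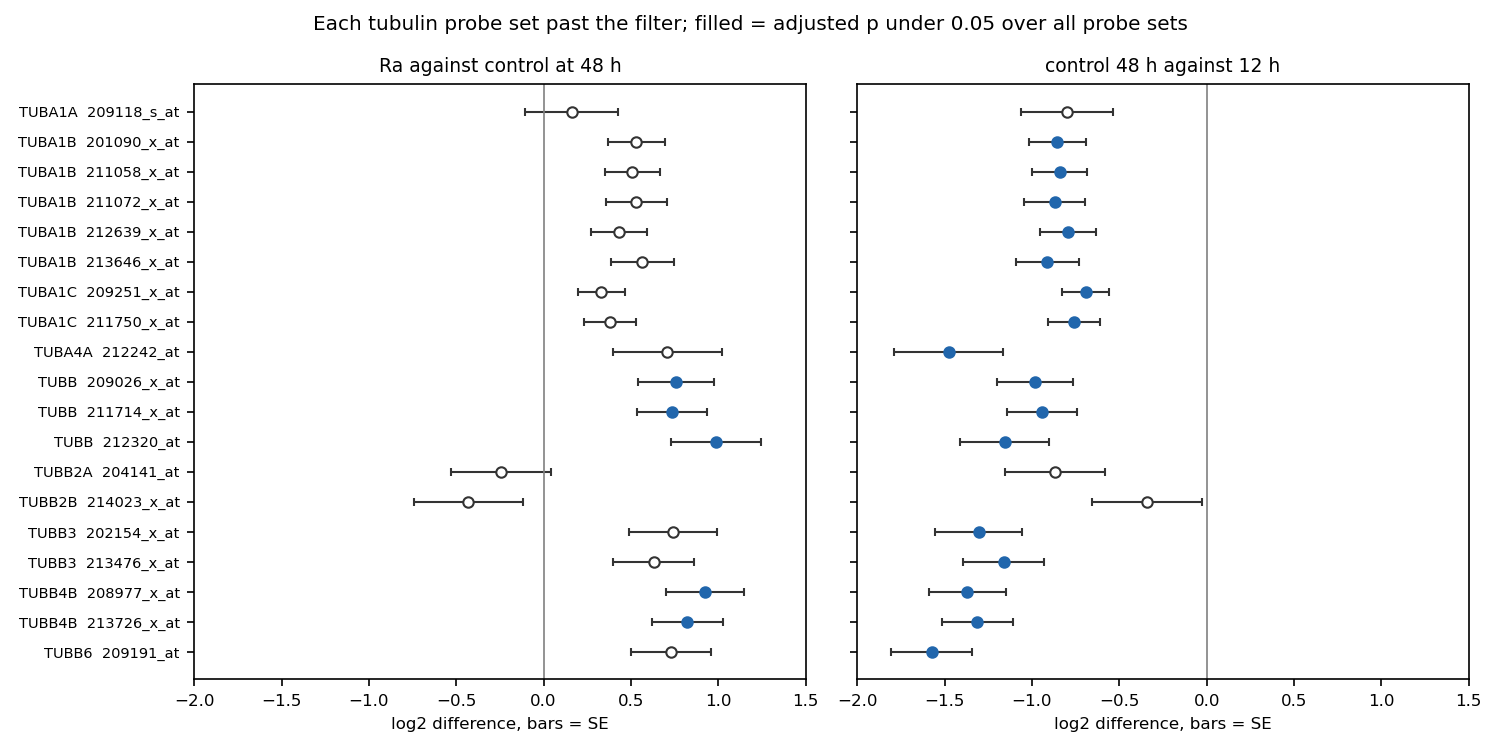
The x axis gives the log2 difference of each tubulin probe set past the filter with its SE, for Ra against control at 48 h (left) and for control cells at 48 h against 12 h (right); filled points have a limma adjusted p under 0.05 over all probe sets. Probe sets of 1 gene lie close together, those of TUBB and TUBB4B are filled at 48 h (0.73 to 0.99), and 16 of the 19 are filled and lower over time.

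The tubulin genes varied together over the 12 arrays, which share the time and treatment groups. Pearson's r of a gene with the mean of the other 9 was 0.985 for TUBB3, 0.983 for TUBA1B and 0.983 for TUBA4A, and was lowest for TUBB2B (0.630) and TUBB2A (0.865). Genes outside the 10 were compared, over 12 arrays, with the mean of all 10 members. The 5 with the highest Pearson's r were C4orf46 (0.992), KIF23 (0.989), E2F8 (0.988), ANLN (0.983) and CENPE (0.982). They were picked as the highest of all other genes tested, and against another mean, so their r cannot be ranked against those of the members. As background, KIF23, ANLN and CENPE act in mitosis and cytokinesis, and E2F8 is a cell cycle transcription factor. KIF23 averaged 9.25 ± 0.37 with Ra, against 8.70 ± 0.91 in control cells at 48 h, and 9.88 ± 0.14 with Ra, against 10.06 ± 0.06 in control cells at 12 h (SD, n = 3 each).

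Genes of G2 and mitosis moved in the same comparisons, in which 3% of all genes were called higher and 9.56% lower with Ra at 48 h. Over time with vehicle 9.37% of all genes were called higher and 10.1% lower. Of 20 measured, 20 fell and 0 rose in control cells between 12 h and 48 h (median -1.23), among them PLK1, a mitotic kinase, with -1.99 ± 0.47 and KIF20A, a kinesin of cytokinesis, with -1.65 ± 0.27 (SE; limma adjusted p = 0.0129 and 0.0035). With Ra at 48 h, 7 of the 20 were higher than in control cells and 0 lower (median 0.68), among them KIF20A by 1.23 ± 0.27 and MKI67, the proliferation marker, by 1.06 ± 0.27 (limma adjusted p = 0.0208 and 0.0295). The count at 48 h was 12 without Ra replicate 2 and 16 without control replicate 3, beside 1943 and 1982 of all genes called in either direction. On the arrays of 48 h the list's mean, relative to control cells at 12 h, was -0.41, -0.85 and -0.10 with Ra, against -1.82, -1.31 and -0.63 in control cells. The tubulin mean was -0.66, -0.91 and -0.26 with Ra, against -1.54, -0.97 and -0.47 in control cells. Both means stood in the same order over the replicates of each 48 h group, and whether the share of dividing cells set the tubulin values was not tested.

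**Figure D4:**
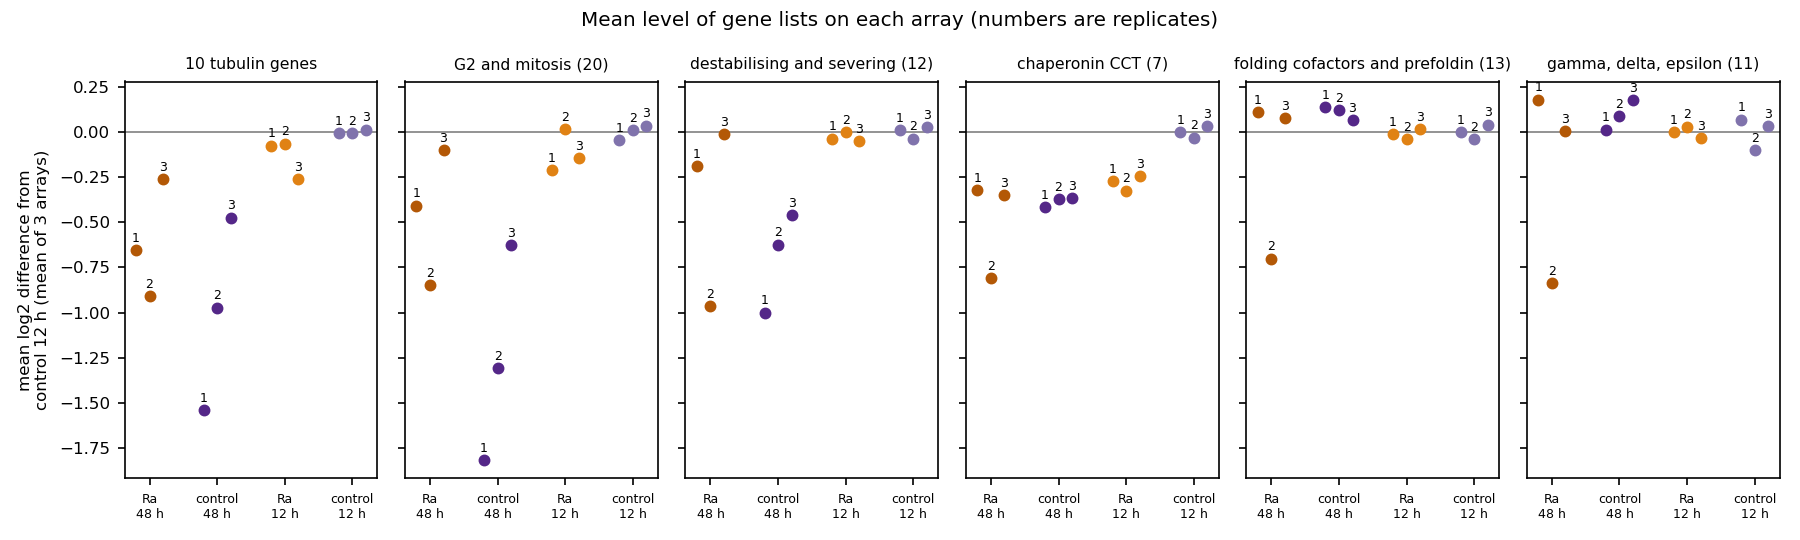
The y axis gives the mean log2 difference of a gene list from control cells at 12 h, with 1 point per array marked by its replicate number, for the Ra and control groups of each time. The tubulin genes and the genes of G2 and mitosis are lowest on control 48 h replicate 1 (-1.54 and -1.82), while for the folding, chaperonin and gamma tubulin lists Ra 48 h replicate 2 lies lowest.

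Genes that handle tubulin moved less uniformly. Their counts stand beside 3% of all genes called higher and 9.56% lower with Ra at 48 h, and 9.37% called higher and 10.1% lower over time with vehicle, and several of the shares in these small lists are near those. With Ra 48 h replicate 2 left out, 1943 of all 10050 genes were called with Ra at 48 h and 4095 over time with vehicle. With control 48 h replicate 3 left out, these were 1982 and 2292. Of the 7 measured subunits of the chaperonin CCT, which folds tubulin and actin, 4 fell in control cells over time, led by CCT3 with -0.71 ± 0.16 (limma adjusted p = 0.0101), and 0 passed between Ra and control at 48 h. Of 13 folding cofactors and prefoldin subunits, PFDN2 and the tubulin cofactor TBCE rose over time with vehicle, by 0.83 ± 0.25 and 0.75 ± 0.19, and were lower with Ra at 48 h (-1.12 ± 0.25 and -0.97 ± 0.19; limma adjusted p = 0.0216 and 0.0143). Both genes thus moved opposite to TUBB and TUBB4B in these comparisons. Of the 13, the counts higher and lower with Ra at 48 h (0 and 2) became 2 and 2 with Ra 48 h replicate 2 left out and 1 and 3 with control 48 h replicate 3 left out, and the counts over time (2 and 0) became 3 and 2, and 3 and 1. Of 12 destabilising and severing proteins, 6 fell over time with vehicle, and 2 were higher with Ra at 48 h, which became 5 with Ra 48 h replicate 2 left out and 5 with control 48 h replicate 3 left out. STMN1, which binds free heterodimers, is in both counts, with -1.32 ± 0.25 over time and 1.13 ± 0.25 with Ra (limma adjusted p = 0.0059 and 0.0208).

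Of 21 lattice and plus-end proteins, 1 was higher and 2 were lower with Ra at 48 h, against 3% and 9.56% of all genes. Lower were CLIP1, a plus-end tracking protein, with -1.04 ± 0.23, and MAP1B, a neuronal microtubule-associated protein, with -0.87 ± 0.17 (limma adjusted p = 0.0208 and 0.0136). The count higher became 5 with Ra 48 h replicate 2 left out and 3 with control 48 h replicate 3 left out, and the count lower stayed at 2. Over time with vehicle 2 rose and 4 fell, among them PRC1, the spindle midzone bundler, with -1.19 ± 0.25, and without Ra 48 h replicate 2 the counts were 4 and 7. Of 11 enzymes that modify tubulin, 0 passed with Ra at 48 h, and over time with vehicle TTLL1 (1.23 ± 0.28) and AGTPBP1 (0.88 ± 0.20) rose while TTL, the tyrosine ligase, fell by 0.66 ± 0.20 and TTLL5 by 0.58 ± 0.18. Of the 11 genes of tubulin messenger RNA autoregulation, CNOT2 was lower with Ra at 48 h (-0.69 ± 0.17; limma adjusted p = 0.0280), and CNOT9 and CNOT6 fell over time with vehicle. TTC5, which recognises nascent tubulin, gave -0.21 ± 0.21 between Ra and control at 48 h (adjusted p = 0.507). Of 8 other cytoskeleton genes, LMNB1, a nuclear lamin, was higher with Ra at 48 h (1.21 ± 0.29; limma adjusted p = 0.0238), and LMNB1, KRT8 and VIM fell over time with vehicle. The higher count at 48 h became 2 of 8 without either of Ra 48 h replicate 2 and control 48 h replicate 3. Without the first of these arrays, 1 of the 11 modifying enzymes was higher with Ra at 48 h and 3 fell over time, and 3 of the 11 autoregulation genes fell over time, which became 1 without the other array. At 12 h 0 genes of these lists passed.

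TUBE1, the epsilon tubulin of centrioles and outside the alpha and beta families, showed the opposite picture with a wide spread. It averaged 7.05 ± 2.05 with Ra, against 9.95 ± 0.20 in control cells at 48 h, and 7.51 ± 0.14 with Ra, against 7.09 ± 0.44 in control cells at 12 h (SD, n = 3 each). It rose over time with vehicle by 2.85 ± 0.71 and was lower with Ra at 48 h (-2.90 ± 0.71; limma adjusted p = 0.0159 and 0.0250). TUBG1, the gamma tubulin that nucleates microtubules, fell over time with vehicle by 0.85 ± 0.20 (adjusted p = 0.0122) and differed by 0.59 ± 0.20 with Ra at 48 h (adjusted p = 0.0633). Of the 11 measured genes of the gamma, delta and epsilon tubulins and their ring, 0 were higher and 1 lower with Ra at 48 h, against 3% and 9.56% of all genes. These counts became 3 and 1 with Ra 48 h replicate 2 left out and 1 and 1 with control 48 h replicate 3 left out. Over time with vehicle 1 rose and 1 fell, and 3 and 2 fell without those arrays.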

How the data were processed

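Total RNA of 12 HK-2 samples was hybridised to Affymetrix 3′ arrays, 3 samples for each of 4 groups, with group, time and replicate number taken from the labels. The authors deposited log2 values, made with GCRMA per the submitters' processing notes, which corrects background by probe sequence, normalizes arrays and summarises probe sets. The sources used here give neither its version nor which arrays were normalized together. GCRMA shrinks low signals, and the number of arrays limits the precision.

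Of 54675 probe sets, the platform annotation gave 1 symbol to 41097, several to 1801 and none to 11777. Probe sets with 1 symbol and at least 3 arrays at 5 log2 units or more (17339) were kept, and the highest mean over 12 arrays chose the probe set of each of 10050 genes. A limma 3.58.1 model in R 4.3.3 fitted 1 mean per group to the 12 arrays, which leaves 8 residual degrees of freedom, with variances moderated by an intensity trend, and p-values were adjusted by Benjamini-Hochberg over all genes (threshold 0.05). Compared were Ra and control within each time, how the Ra effect differed between times, and 48 h with 12 h within each treatment. The code was tested on simulated data.

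Named genes are all tubulin members, up to 4 called members of each pathway list with the largest change, GAPDH, ACTB and the 5 genes most correlated with the tubulin mean. TTC5 and TUBB4A were added for their role after their values were seen. The members and lists were chosen with earlier results of these data known. Replicates were checked as pairs through deviations from group means: same-numbered arrays correlated by 0.182, 0.421 and 0.344 at 12 h, so numbers may pair there. At 48 h they correlated by 0.301, -0.219 and 0.097. With 3 arrays a group these values cannot settle whether the numbers mark pairs at 48 h. No 2 arrays held identical values (0 of 66 pairs). Alternatives were other filters, averaging the probe sets of a gene, no cross-hybridising types, quantile normalization, centring, no intensity trend, robust variance, array weights, the replicate block, fits on the 6 arrays of a comparison, and each array left out in turn. Promoter windows came from RefSeq (GRCh38.p14). Plots were drawn with matplotlib 3.10.9.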

Additional observations from a re-analysis of the deposited data

How the results depend on the processing

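Of 1150 tubulin values under an alternative, 1032 kept their direction and side of the threshold, and 26 changed sign, 0 of them called in either setting. At 48 h the main fit called 2 tubulin genes higher with Ra, and 1262 of all genes in either direction. The count of all genes called in either direction under each alternative stands in brackets. The tubulin count became 0 without the filter [327], 1 without cross-hybridising probe set types [903], 7 after quantile normalization [3014] and 7 after centring [2863]. It was 1 without the intensity trend [1112], 7 with array weights [5207] and 5 with the replicate block within each time [1339]. It was 0 in the 6 arrays of 48 h [0] and 0 there with the replicate block (added after the data were seen) [131]. With arrays left out in turn it was 0 to 7 [45 to 2725]. Quantile normalization and centring moved the median of all genes at 48 h to 0.01 and 0.05, from -0.20 in the deposited values. At 12 h the count (0) became 1 in the 6 arrays of 12 h [1366] and 2 there with the replicate block (added likewise) [2351], and was 0 to 0 with arrays left out [0 to 219]. The difference of the Ra effects (0 called) gave 2 after quantile normalization [944], 2 after centring [856], 7 with array weights [4464] and 0 to 6 with arrays left out [1 to 1041]. Control 48 h against 12 h (8) gave 4 of 4 genes without cross-hybridising types [1409] and 7 to 9 with arrays left out [788 to 4095], and Ra 48 h against 12 h (0) gave 0 to 1 [0 to 321]. With the replicate block over all 12 arrays, 48 tubulin values kept their direction and side, and 2 moved to a call. These were TUBB6 with Ra at 48 h (limma adjusted p = 0.0301) and TUBA1A over time with vehicle (0.0486). The count of all genes called in that fit is not given here, so no share can be set beside these calls. Over probe sets, the main fit called 5 tubulin probe sets with Ra at 48 h, beside 434 of all higher and 1365 lower. With brackets now counting all probe sets, this became 0 without the filter [322] and 16 after centring [4491]. Calls after centring thus rose over all probe sets as well. The difference of the Ra effects gave 3 after centring [1181]. Ra at 48 h gave 6 with the replicate block, and control over time (16) gave 18 after centring. Where no bracket stands, the count of all probe sets is not given here. The sign turned for the difference of effects of TUBB2A (0.14 after quantile normalization, 0.25 after centring, 0.26 with array weights) and of TUBB2B (0.0024 and 0.066 after the same first 2), for TUBB2A with Ra at 48 h (0.0056 centred, 0.084 weighted), and for Ra 48 h against 12 h of TUBA1C (0.0015 centred), TUBB (0.076 centred) and TUBB4B (0.0090 weighted). With arrays left out, values whose sign turned ranged from -0.031 to 0.12 for TUBA1A with Ra at 12 h, from -0.21 to 0.43 at 48 h and from -0.23 to 0.40 for its difference of effects, from -0.59 to 0.068 for TUBB2A with Ra at 48 h and from -0.36 to 0.29 for its difference, and from -0.57 to 0.092 for TUBB2B's difference and from -0.59 to 0.025 over time with vehicle. The cause of these moves was not tested.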
